A study of Homo sapiens with 6 samples.

Results

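A set of 10 cell-surface adhesion receptors was followed across 6 arrays: CD44, the main receptor for hyaluronan, and the immunoglobulin-type molecules ICAM1, VCAM1, ALCAM, MCAM, BCAM, CEACAM1, NCAM1, L1CAM and NRCAM. The members were taken by name, with every probe set annotated to one of them and to no other gene. They are 10 of 19775 genes named alone by a probe set on the array, and 9 of them were among the 13606 genes tested. The 10 genes carried 40 probe sets, of which 32 passed the filter on low signal and 8 did not.

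RNA was measured on one-colour Affymetrix human arrays, with 3 samples in each group. The first group, called here the Fry clone, was labelled as 231wCFry, a stable puromycin-selected clone of MDA-MB-231 carrying the 10791-base-pair Fry cDNA of the COP rat. Per the labels it is a single clone, picked because its Fry level was close to that of MCF10A, a non-transformed mammary epithelial line; no empty-vector clone is described in them. The second group, called parental, was untransfected MDA-MB-231, an established human breast cancer line. Both lines were grown in the same medium with serum and antibiotics. The samples varied in passage number, which is not given for each sample, and the labels do not say whether they came from separate cultures, so p-values measure only the spread between these samples. Transfection, drug selection and the origin from 1 clone cannot be told apart in this design.

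Immunoglobulin-type adhesion molecules are membrane proteins whose outer part is built of immunoglobulin-fold domains, with which they bind the same molecule on a neighbouring cell, integrins or the extracellular matrix. Their tails are tied to actin, spectrin or ankyrin, and their outer parts can be shed by proteases. CD44 belongs to another family, binds hyaluronan through its link domain, and is made in many forms by alternative splicing of its middle exons. In breast cancer cells of mesenchymal character CD44 is known to be abundant.

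By the probe set of highest mean signal, and on the log2(signal + 16) scale, ICAM1 had the largest change among the members; with a pseudocount of 1, CEACAM1 and NCAM1 changed by more. VCAM1 was the member with no probe set above the filter. Both are textbook targets of the NF-kappaB transcription factors, so the 250 bases before their annotated starts are shown first, as RefSeq gives them on GRCh38.p14. Capitals mark matches to GGNNNTTCC, a loose form of the kappaB motif, searched on both strands. The ICAM1 stretch is chr19:10270870-10271119 on the plus strand, and the VCAM1 stretch is chr1:100719492-100719741 on the plus strand.
ICAM1: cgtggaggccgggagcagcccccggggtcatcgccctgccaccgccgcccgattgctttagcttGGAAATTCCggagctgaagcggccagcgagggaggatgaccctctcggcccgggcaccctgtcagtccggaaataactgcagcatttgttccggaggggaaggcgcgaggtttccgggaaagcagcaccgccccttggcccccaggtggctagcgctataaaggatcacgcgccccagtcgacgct
VCAM1: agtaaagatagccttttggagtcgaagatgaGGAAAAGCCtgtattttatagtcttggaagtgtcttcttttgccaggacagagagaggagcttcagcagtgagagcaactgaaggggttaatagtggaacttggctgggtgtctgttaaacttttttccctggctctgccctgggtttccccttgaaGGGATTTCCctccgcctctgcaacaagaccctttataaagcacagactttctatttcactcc

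The ICAM1 stretch held 1 match, GGAAATTCC, which reads the same on both strands and lies 177 bases before the start. The VCAM1 stretch held 2 matches: GGGATTTCC, 53 bases before the start, and GGAAAAGCC, which is the motif read on the minus strand. Promoter entries were found for 9 of the 10 members, all but NCAM1, in 13 windows, and only those of ICAM1 and VCAM1 held a match. Among all 35116 promoter windows of the same length, 17.1% held one. The stretches differed in CpG dinucleotides, with 23 in ICAM1 and 2 in VCAM1, where the median window held 11. A match describes letters in a window and is not a measured site.

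Before the members, the arrays were checked against their labels. All 6 arrays had been scaled to the same trimmed mean of 150 signal units, and their median signals lay between 10.4 and 12.1. Correlations of log2 signal were 0.994 to 0.996 within groups and 0.921 to 0.924 between groups. The ratio of 3' to 5' GAPDH signal, a sign of RNA quality, was 1.24 to 1.33 in the Fry clone and 1.36 to 1.39 in the parental samples. The 4 probe sets for human FRY read at most 9.8 on any array and were all below the filter. The probe set with that reading gave 0.4, 0.1 and 0.6 in the Fry clone and 9.8, 5.9 and 9.1 in parental cells. In the fit without the filter it was lower in the Fry clone (limma adjusted p = 9.72e-04). Another, at 3.2, 2.2 and 2.7 in the Fry clone and 4.9, 5.8 and 8.2 in parental cells, was lower too (adjusted p = 0.0396). The remaining FRY probe sets had overlapping groups and did not pass (adjusted p = 0.517 and 0.247). The transfected cDNA is from rat, so these probe sets do not check the transgene. Its human relative FRYL averaged 107 ± 12.7 in the Fry clone and 278 ± 13.5 in parental cells, a log2 change of -1.26 (limma adjusted p = 5.27e-06).

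Several defining markers of cell types differed by more than any member did. The summed signal of 6 tested epithelial markers was 1540 to 1652 on the Fry clone arrays and 6175 to 6843 on the parental arrays. KRT19, a simple-epithelial keratin, averaged 1.10 ± 0.346 in the Fry clone and 1669 ± 43.5 in parental cells (SD, n = 3 each). In contrast, the summed signal of 6 markers of melanocytes and neural crest was 4227 to 4605 in the Fry clone and 369.5 to 442.1 in parental cells. SOX10, a neural crest transcription factor, averaged 1395 ± 22.3 in the Fry clone and 0.433 ± 0.321 in parental cells, and S100B averaged 1770.1 ± 93.3 in the Fry clone and 0.700 ± 0.872 in parental cells. Not every marker was lost or gained. KRT18, another simple-epithelial keratin, averaged 1507 ± 56.5 in the Fry clone and 2992 ± 191 in parental cells, and made up most of the epithelial sum of the Fry clone. MITF, the melanocyte transcription factor, averaged 1129 ± 65.3 in the Fry clone and 399 ± 39.8 in parental cells. SOX10, S100B and MITF made up nearly all of the melanocyte and neural crest sum in the Fry clone, and MITF most of it in parental cells. The pigment cell marker MLANA was dim, at 16.5, 64.1 and 26.0 in the Fry clone and 1.3, 1.3 and 0.4 in parental cells. KRT19 was thus near 0 in the Fry clone, and SOX10 and S100B were near 0 in parental cells. Of the 6 epithelial markers 4 were lower in the Fry clone and 1 was higher, and of the 6 neural crest markers 5 were higher and none was lower. Leukocyte markers summed to 3.8 to 8.6 in the Fry clone and 43.5 to 64.2 in parental cells, with PTPRC and CD3E below the filter. Of 4 tested fibroblast markers 3 were lower in the Fry clone and COL1A2 was higher, at 831 ± 48.4 in the Fry clone and 39.4 ± 3.46 in parental cells. Mesenchymal markers were mixed, with VIM and FN1 bright in both groups. CDH2 averaged 1849 ± 266 in the Fry clone and 43.1 ± 2.84 in parental cells, while ZEB1 averaged 316 ± 3.18 in the Fry clone and 1091 ± 111 in parental cells. Every comparison that follows is between samples that also differ in this way, and which cells the RNA came from was not tested. In bulk RNA, fewer cells of a type and less RNA per cell cannot be told apart.

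The background of change was accordingly high. By limma on log2(signal + 16), with Benjamini-Hochberg adjustment over all 32768 tested probe sets and a threshold of 0.05, 62.4% of probe sets passed, 30.2% as higher and 32.2% as lower in the Fry clone. Groups did not overlap for 67.2% of tested probe sets. Over genes, each read by its probe set of highest mean signal, 34% were higher and 33% were lower. A passing test is therefore common here, and the counts among the members are set beside these shares.

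Among the 32 tested probe sets of the members, 22 were higher in the Fry clone, 4 were lower and 6 did not pass, which is 68.8% higher and 12.5% lower. Groups did not overlap for 27 of the 32. For 7 of the 32, of NCAM1, CEACAM1 and BCAM, 1 group lay under the filter signal, so they could pass the filter only through the group where they were high. Of the other 25, 16 were higher, 3 were lower and 6 did not pass. By their probe set of highest mean signal, 7 member genes were higher, 2 were lower, and VCAM1 was below the filter. The higher genes include NCAM1, which lay under the filter signal in parental cells. The median log2 change was 0.44 over the 32 tested member probe sets and -0.02 over all tested probe sets. That member median includes the probe sets that passed through 1 group only. Of the 32, 11 read CD44, so they are repeat readings of 1 gene. Among probe sets naming 1 gene alone, no member had calls in both directions.

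**Figure D1:**
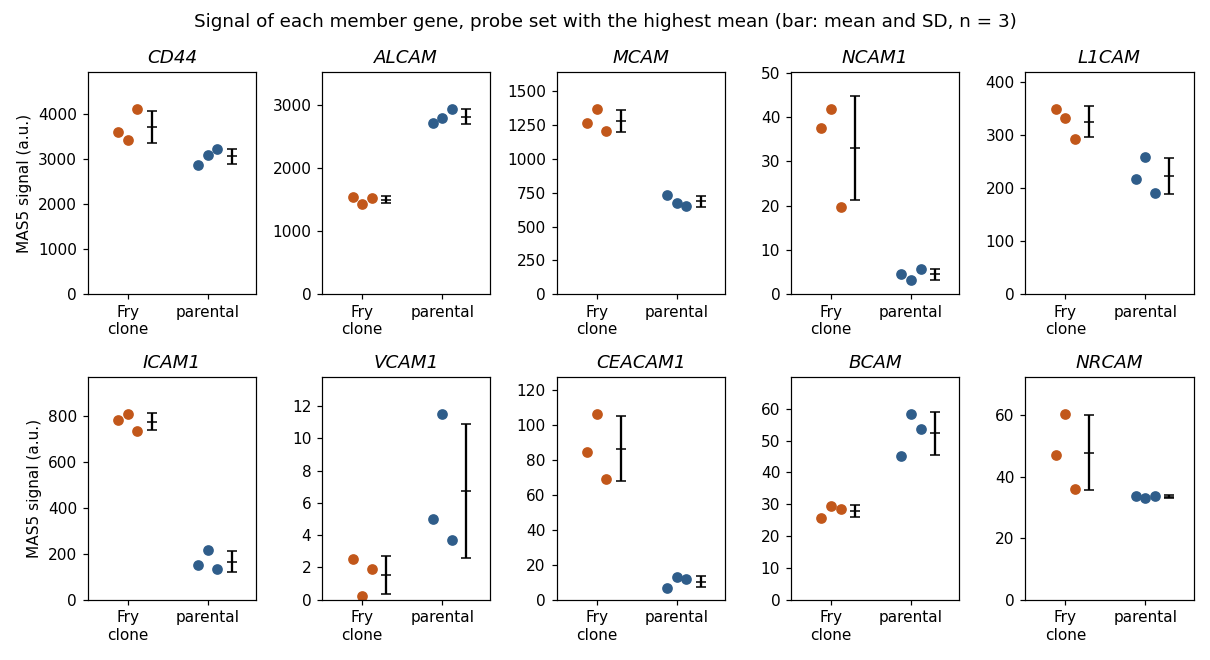
MAS5 signal in arbitrary units of each member gene on each array, for its probe set with the highest mean, with the Fry clone left and parental cells right; the bar beside the points gives the mean and SD of 3 arrays. ICAM1 at 734 to 808 in the Fry clone lies above 132 to 215 in parental cells, whereas ALCAM and BCAM lie lower in the Fry clone, and axes differ between genes.

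Among the receptors that bind leukocyte integrins, ICAM1 rose and VCAM1 was hardly measured. ICAM1 (CD54) is the ligand of the integrins LFA-1 and Mac-1. Its probe set 202638_s_at read 783, 808 and 734 in the Fry clone and 149, 215 and 132 in parental cells. All 3 Fry clone samples were more than 3 times as high as any parental sample. The log2 change was 2.15 ± 0.15 (SE, n = 3 each), with a 95% interval of 1.80 to 2.50 and a limma adjusted p of 2.15e-06. Only 4.79% of all tested probe sets had a change of larger size.

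The other ICAM1 probe sets moved the same way. Probe set 202637_s_at read 405, 402 and 354 in the Fry clone against 97.5, 124 and 96.1 in parental cells, a log2 change of 1.73 ± 0.11 (adjusted p = 1.15e-06). Probe set 215485_s_at was dimmer, at 49.1, 49.0 and 48.0 in the Fry clone and 17.1, 19.2 and 10.6 in parental cells. Its log2 change was 1.04 ± 0.12 (adjusted p = 4.00e-05). All 3 probe sets thus separated the groups with no overlap.

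VCAM1 (CD106), the ligand of integrin alpha4-beta1, had 1 probe set, 203868_s_at. It read 2.5, 0.2 and 1.9 in the Fry clone and 5.0, 11.5 and 3.7 in parental cells, which is below the filter. The 3 Fry clone values were not above the level of the unspiked bacterial control probe sets, and they lay under all 3 parental values. In geometric mean, the parental signal was 1.70 times the control level of the Fry clone arrays. Parental replicate 3, at 3.7, was under the control level of Fry clone replicate 3, at 4.9. In the fit without the filter, VCAM1 did not pass, with an adjusted p of 0.0661. The promoter windows that hold kappaB-like matches thus belong to a gene that was higher in the Fry clone and to one below the filter.

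Relatives of ICAM1 were read as well; they are named here after their values were seen. ICAM3, which binds LFA-1 on leukocytes, averaged 929 ± 19.0 in the Fry clone and 376 ± 49.3 in parental cells, and it rose by 1.28 on the log2 scale (adjusted p = 6.92e-06). ICAM2, which is found on endothelium, went the other way, at 2.27 ± 3.15 in the Fry clone and 121 ± 20.8 in parental cells. ICAM4, known from red cells, was likewise lower, at 4.5 ± 2.29 in the Fry clone and 88.3 ± 4.65 in parental cells. The log2 changes were -2.91 for ICAM2 and -2.35 for ICAM4 (adjusted p = 2.16e-07 and 7.74e-08). Both lay under the filter signal of 5.62 in the Fry clone, so they could pass the filter only through the parental values. ICAM5 averaged 8.90 ± 3.60 in the Fry clone and 2.53 ± 1.72 in parental cells and was below the filter (adjusted p = 0.0273 in the fit without it). Of the tested ICAM genes, ICAM1 and ICAM3 were thus higher and ICAM2 and ICAM4 lower.

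CD44 was bright in both groups, with 6 of its 13 probe sets above a signal of 1000 on all 6 arrays, and 7 of the 11 tested were higher in the Fry clone. None was lower, 4 did not pass and 2 were below the filter. The size of the change depended on the probe set, from 0.04 to 1.61 on the log2 scale, with a median of 0.32. The probe set of highest signal, 212063_at, read 3601, 3406 and 4102 in the Fry clone and 2867, 3080 and 3211 in parental cells. The groups did not overlap, and the log2 change was 0.27 ± 0.10 (adjusted p = 0.0404). That call was lost with a pseudocount of 1 (0.0699), without Fry clone replicate 1 (0.0734) or 3 (0.131), and without parental replicate 1 (0.122) or 2 (0.0770).

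Other bright CD44 probe sets gave changes of similar size. Probe set 204490_s_at read 2513, 2228 and 2882 in the Fry clone and 1744, 1875 and 2033 in parental cells, a log2 change of 0.42 ± 0.12 (adjusted p = 0.0102). Probe sets 212014_x_at and 209835_x_at changed by 0.36 and 0.32 (adjusted p = 0.00782 and 0.0131). These 3 kept their calls under all 13 alternatives that tested them. Probe set 204489_s_at, at 2930, 2689 and 3266 in the Fry clone and 2609, 2556 and 2627 in parental cells, did not pass (log2 change 0.18, adjusted p = 0.132), though it did with quantile normalization or an intensity trend. Most bright probe sets thus placed CD44 slightly higher in the Fry clone, by less than 1.5-fold.

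A further 3 CD44 probe sets stood higher. Probe set 229221_at read 370, 353 and 333 in the Fry clone and 110, 103 and 100 in parental cells, a log2 change of 1.61 ± 0.09 (adjusted p = 3.51e-07). Probe set 210916_s_at read 1030, 1046 and 1117 in the Fry clone and 595, 581 and 574 in parental cells, a change of 0.85 ± 0.09 (adjusted p = 2.15e-05). Probe set 1557905_s_at read 2139, 1993 and 2309 in the Fry clone and 1487, 1505 and 1462 in parental cells, a change of 0.52 ± 0.09 (adjusted p = 7.84e-04). In each of these probe sets the lowest Fry clone array lay well above the highest parental array. Set against 212063_at on the same arrays, the log2 change was larger by 1.34 for 229221_at, by 0.57 for 210916_s_at and by 0.25 for 1557905_s_at. The per-array differences did not overlap between groups, with an exact two-sided permutation p of 0.1 each, the smallest that 3 against 3 arrays allow, and 0.164 after adjustment over 23 such comparisons. The same test result held for 204490_s_at, with a change larger by 0.15, and for 204489_s_at, with a change smaller by 0.09. It therefore does not set the higher probe sets apart, and only the sizes do. Which CD44 exons the probe sets read is not given in the sources used here, so these values do not name an isoform.

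**Figure D2:**
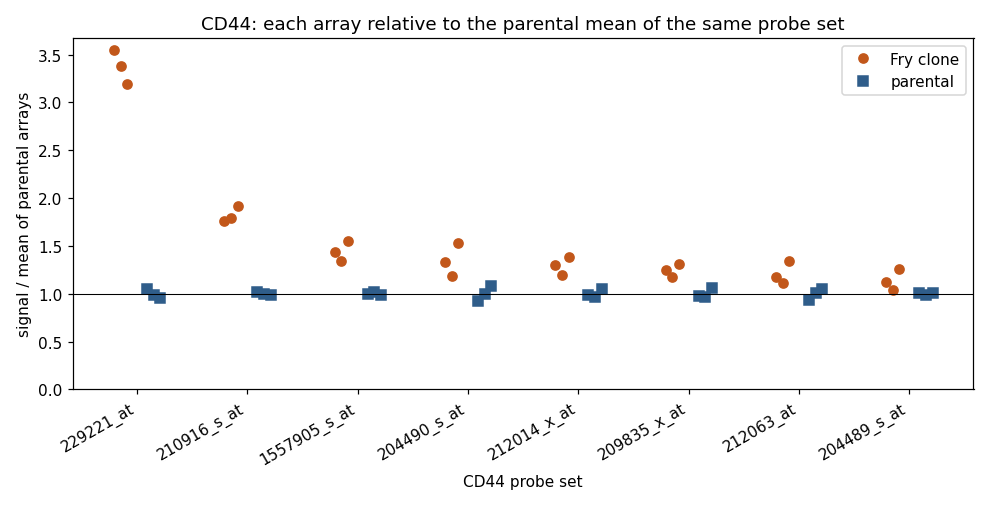
Signal of the 8 brightest CD44 probe sets on each array, divided by the mean of the 3 parental arrays for the same probe set; circles are the Fry clone, squares are parental cells, and the line marks 1. All Fry clone points of 229221_at lie above 3, while those of 204489_s_at lie close to the parental points.

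The dim CD44 probe sets showed no called change. Probe set 217523_at averaged 25.7 ± 7.39 in the Fry clone and 19.7 ± 5.15 in parental cells. Probe set 234418_x_at averaged 11.5 ± 2.91 in the Fry clone and 8.77 ± 0.666 in parental cells. Probe sets 234411_x_at, 216056_at and 1565868_at averaged under 10 in both groups, and all 5 had overlapping groups.

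ALCAM and MCAM, both found on melanoma and endothelial cells, moved in opposite directions. ALCAM (CD166) binds itself on neighbouring cells and CD6 on T cells. Its probe set 201952_at read 1537, 1433 and 1522 in the Fry clone and 2710.1, 2798 and 2941 in parental cells. The groups were far apart, and the log2 change was -0.90 ± 0.09 (adjusted p = 1.60e-05). Probe set 201951_at read 510.2, 526 and 527 in the Fry clone and 1331, 1355 and 1456 in parental cells, a change of -1.38 ± 0.09 (adjusted p = 8.34e-07). The third, 1569362_at, averaged 7.90 ± 2.10 in the Fry clone and 10.0 ± 2.72 in parental cells and did not pass (adjusted p = 0.363). ALCAM was thus lower in the Fry clone in both probe sets that were bright.

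MCAM (CD146), an adhesion receptor first described on melanoma cells, was higher. Probe set 209087_x_at read 1262, 1368 and 1209 in the Fry clone and 733, 672 and 653 in parental cells, a log2 change of 0.88 ± 0.09 (adjusted p = 3.17e-05). Probe set 1568191_at read 46.4, 58.8 and 59.5 in the Fry clone and 17.7, 22.4 and 23.3 in parental cells, a change of 0.93 ± 0.11 (adjusted p = 6.57e-05). Neither probe set had overlapping groups. The changes were nearly equal on this log2 scale only, as the ratios of mean signals were 1.87 for 209087_x_at and 2.60 for 1568191_at. Over the alternatives the log2 change was 0.84 to 0.93 for 209087_x_at and 0.48 to 1.34 for 1568191_at. On the same arrays the melanocyte and neural crest markers were higher too, as given above, and their part in the MCAM values was not tested. A further 4 probe sets name both MCAM and a microRNA gene; 3 of them were higher and 1, with the highest mean signal of all 6 annotated to MCAM, was lower, and they are given with the additional observations.

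BCAM, the Lutheran glycoprotein and receptor for laminin alpha-5, was lower in the Fry clone. Probe set 40093_at read 25.7, 29.3 and 28.6 in the Fry clone and 45.0, 58.3 and 53.8 in parental cells, a log2 change of -0.64 ± 0.10 (adjusted p = 4.53e-04). Probe set 203009_at read 4.4, 7.6 and 1.6 in the Fry clone and 21.1, 17.1 and 10.4 in parental cells, a change of -0.65 ± 0.15 (adjusted p = 0.00418). Neither probe set had overlapping groups, and both kept their calls in every alternative run. BCAM and ALCAM were the members whose tested calls all ran lower.

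CEACAM1, a carcinoembryonic antigen family receptor that binds itself and other family members, was higher in the Fry clone. Probe set 209498_at read 84.1, 106 and 68.8 in the Fry clone and 6.6, 12.8 and 11.5 in parental cells. The lowest Fry clone value was over 5 times the highest parental value, and the log2 change was 1.95 ± 0.15 (adjusted p = 2.97e-06). Only 5.8% of tested probe sets changed by more. Probe set 206576_s_at averaged 22.7 ± 2.91 in the Fry clone and 8.50 ± 1.14 in parental cells, a change of 0.66 (adjusted p = 2.29e-04).

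A pair of dimmer CEACAM1 probe sets were also called. Probe set 211889_x_at read 22.0, 11.9 and 13.9 in the Fry clone and 1.4, 4.4 and 0.9 in parental cells, where it was not above the control level. In geometric mean, the Fry clone signal was 4.49 times that level. Probe set 211883_x_at, at 11.3, 14.9 and 10.2 in the Fry clone and 1.2, 8.7 and 6.7 in parental cells, changed by 0.40 (adjusted p = 0.0327), and it lost its call in 6 of 12 alternatives. The fifth, 210610_at, was below the filter. CEACAM1 was thus near background in parental cells and dim in the Fry clone, and epithelial markers, with which CEACAM1 is often found, were lower there in sum; their part in this was not tested.

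The neural members NCAM1, L1CAM and NRCAM differed in size more than in direction. NCAM1 (CD56) binds itself between cells and can carry polysialic acid, which weakens that binding. Its probe set 231532_at read 37.4, 41.8 and 19.8 in the Fry clone and 4.6, 3.3 and 5.8 in parental cells, a log2 change of 1.22 ± 0.17 (adjusted p = 1.60e-04). Probe set 227394_at read 29.0, 24.4 and 22.0 in the Fry clone and 0.3, 3.6 and 3.5 in parental cells, where it was not above the control level. Here the Fry clone signal was, in geometric mean, 7.29 times that level. Probe set 212843_at read 22.7, 25.3 and 19.9 in the Fry clone and 3.4, 2.7 and 0.4 in parental cells, and 229799_s_at read 11.9, 9.2 and 11.6 in the Fry clone and 3.0, 2.8 and 5.1 in parental cells. All 4 passed the filter through the Fry clone values alone, and the other 3 NCAM1 probe sets were below it. NCAM1 was therefore dim in the Fry clone and near background in parental cells. The 4 neuron markers, with which NCAM1 is often found, summed to 643 to 886 in the Fry clone and 92.6 to 133 in parental cells. Of these markers 2 were higher, 1 did not pass and 1 was below the filter, and their part in the NCAM1 values was not tested.

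L1CAM, which binds itself, integrins and ankyrin, gave unlike answers from its probe sets. Probe set 204584_at read 349, 332 and 292 in the Fry clone and 217, 259 and 191 in parental cells, a log2 change of 0.52 ± 0.12 (adjusted p = 0.00470). Its groups did not overlap, and the call held in all 14 alternatives. Probe set 204585_s_at read 26.9, 35.1 and 25.4 in the Fry clone and 26.7, 32.5 and 20.0 in parental cells, with overlapping groups and no called change (0.09 ± 0.13, adjusted p = 0.559). The difference between the probe sets was 0.43 on the log2 scale (exact permutation p = 0.1, two-sided; 0.164 adjusted).

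NRCAM, of the same family as L1CAM, was the least certain call. Probe set 204105_s_at read 47.2, 60.4 and 36.0 in the Fry clone and 33.9, 33.0 and 33.7 in parental cells. The lowest Fry clone array stood close to the parental arrays, and the Fry clone spread was 12.2 against 0.473 (SD, n = 3 each). The log2 change was 0.35 ± 0.13 (adjusted p = 0.0456), and the call was lost in 10 of 13 alternatives, where the adjusted p reached 0.158. Leaving out any array except Fry clone replicate 3 ended it. The other NRCAM probe set, 216959_x_at, was below the filter.

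**Figure D3:**
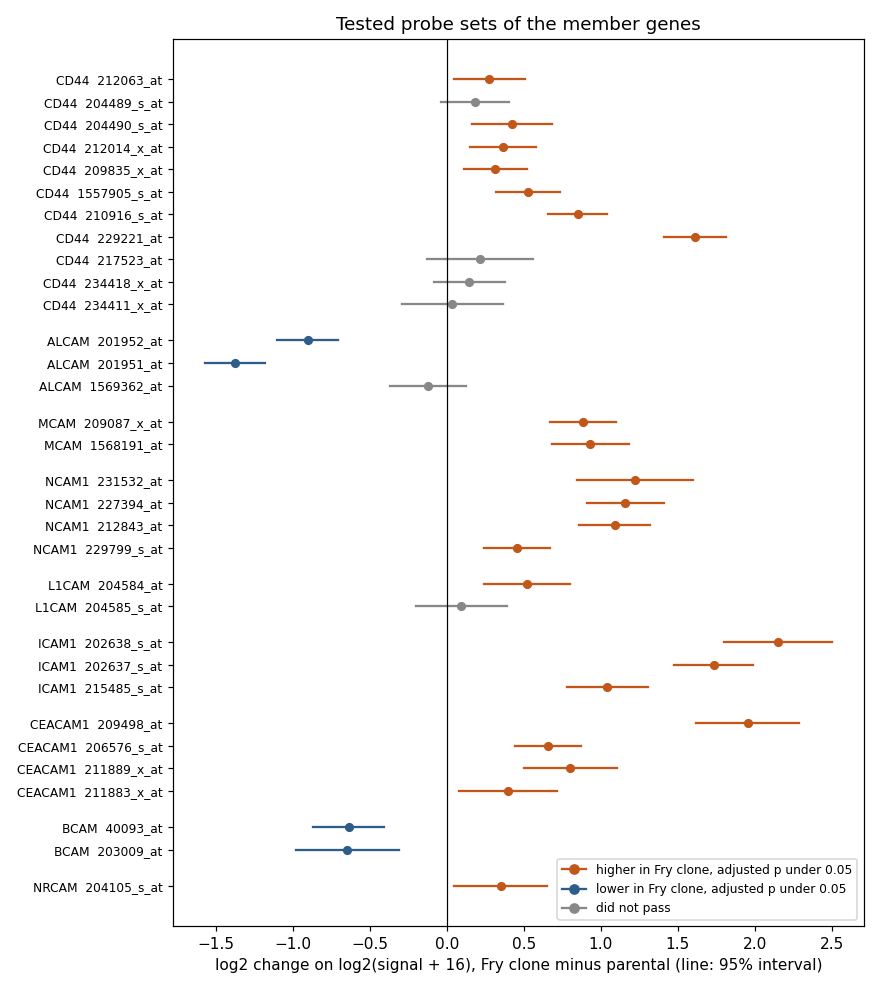
Change of each tested probe set of the members on the log2(signal + 16) scale, Fry clone minus parental, with lines for 95% intervals; orange is higher in the Fry clone, blue lower and grey did not pass. ICAM1 reaches 2.15 and ALCAM -1.38, and the CD44 probe sets spread from 0.04 to 1.61.

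The probe sets of 1 gene often gave changes of unequal size though the same direction. For ICAM1, 215485_s_at changed by 1.11 less than 202638_s_at, and for CEACAM1 the dimmer probe sets changed by 1.15 to 1.55 less than 209498_at. On the log2(signal + 16) scale an equal ratio of signals gives a smaller change in a dim probe set than in a bright one. The ratios of mean signals were unequal too, at 4.69 for 202638_s_at and 3.12 for 215485_s_at. For CEACAM1 they were 8.38 for 209498_at and 2.67, 7.13 and 2.19 for 206576_s_at, 211889_x_at and 211883_x_at. How much of each gap comes from the scale was not tested. For ALCAM the dimmer of the bright pair, 201951_at, changed by 0.47 more in size than 201952_at.

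**Figure D4:**
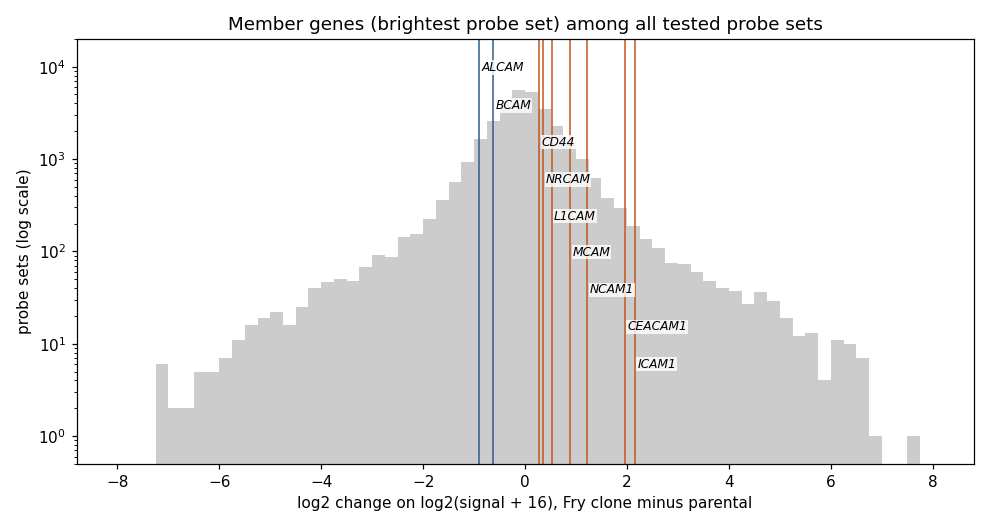
Histogram of the log2 change of all 32768 tested probe sets, Fry clone minus parental, with the number of probe sets on a log axis; lines mark the members by their probe set of highest mean signal, orange for higher and blue for lower. The members lie between -0.90 for ALCAM and 2.15 for ICAM1, well inside the range of all probe sets.

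The rank of a member's change among all tested probe sets put these sizes in order. After ICAM1 and CEACAM1 came NCAM1, with 13.5% of probe sets changing by more in size, ALCAM with 22.1% and MCAM with 22.8%. BCAM stood at 34.4%, L1CAM at 41.9%, NRCAM at 56.2% and CD44, by its probe set of highest signal, at 64.1%. The CD44 probe set 229221_at stood at 8.24%. That order rests on the pseudocount of 16. With a pseudocount of 1 the log2 changes were 2.97 for CEACAM1, 2.57 for NCAM1 and 2.25 for ICAM1, and with 64 they were 1.01, 0.49 and 1.89. Likewise BCAM changed by -0.88 with a pseudocount of 1 and by -0.34 with 64, and NRCAM by 0.47 and 0.19. By these probe sets and the pseudocount of 16, CD44 and NRCAM thus changed by less than the median tested probe set.

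Other immunoglobulin-type adhesion molecules changed in both directions. Of 64 genes listed, 59 were on the array and 36 were tested, of which 10 were higher, 16 were lower and 10 did not pass, with a median log2 change of -0.04 beside 0.01 over all tested genes. CADM1, a homophilic synaptic and epithelial adhesion molecule, averaged 1267 ± 12.8 in the Fry clone and 19.4 ± 5.90 in parental cells, a change of 5.20. NTM, a neuronal surface protein, averaged 723 ± 17.4 in the Fry clone and 14.2 ± 4.65 in parental cells, and JAM3, a junctional molecule, averaged 747 ± 102 in the Fry clone and 26.5 ± 0.265 in parental cells. Lower were ESAM and PECAM1, which are known from endothelium, and EMB, a partner of lactate transporters. ESAM averaged 11.4 ± 1.0 in the Fry clone and 463 ± 32.6 in parental cells, a change of -4.13. PECAM1 averaged 9.17 ± 3.91 in the Fry clone and 209.8 ± 58.4 in parental cells, a change of -3.14, and EMB changed by -3.51. The adjusted p of these 6 genes was at most 6.16e-07, and the changes exceeded that of any member. EMB lay under the filter signal in the Fry clone, so it could pass the filter only through the parental values. The 5 endothelial markers summed to 22.9 to 36.6 in the Fry clone and 182 to 288 in parental cells, most of it PECAM1 itself. Of the others KDR was lower in the Fry clone, TEK was higher, and CDH5 and VWF were below the filter.

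Genes of hyaluronan and of CD44's partners were also mixed. Of 13 tested, 5 were higher, 2 were lower and 6 did not pass (median 0.05). SPP1, which encodes the CD44 ligand osteopontin, averaged 1106 ± 125 in the Fry clone and 3.63 ± 1.88 in parental cells, a log2 change of 5.84 (adjusted p = 4.12e-10). VCAN, a hyaluronan-binding proteoglycan, averaged 464 ± 30.7 in the Fry clone and 39.7 ± 13.8 in parental cells, and HMMR, another hyaluronan-binding protein, averaged 1378 ± 57.1 in the Fry clone and 305 ± 31.1 in parental cells. The changes were 3.14 for VCAN and 2.12 for HMMR. SPP1 lay under the filter signal in parental cells, so it could pass the filter only through the Fry clone values. HAS2, a hyaluronan synthase, averaged 7.73 ± 0.513 in the Fry clone and 190.4 ± 82.9 in parental cells, a change of -3.05 (adjusted p = 2.87e-06). CEMIP, needed for hyaluronan breakdown, averaged 36.3 ± 4.99 in the Fry clone and 199.5 ± 76.8 in parental cells, a change of -1.99. Other genes of hyaluronan synthesis and breakdown, named after their values were seen, did not follow. The synthase HAS3 averaged 870.1 ± 99.4 in the Fry clone and 867 ± 23.4 in parental cells (adjusted p = 0.992), and HYAL2 did not pass (adjusted p = 0.524). The hyaluronidase-family gene HYAL3 averaged 102 ± 24.9 in the Fry clone and 29.6 ± 8.06 in parental cells, a change of 1.36.

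Counter-receptors and soluble ligands of the members changed in both directions. Of 18 tested, 5 were higher, 9 were lower and 4 did not pass (median -0.25). ITGA4, a chain of the integrin that binds VCAM1, averaged 424 ± 21.5 in the Fry clone and 16.8 ± 1.20 in parental cells, a log2 change of 3.74 (adjusted p = 1.21e-09). ITGB3, a chain of an L1CAM-binding integrin, averaged 216 ± 38.7 in the Fry clone and 16.6 ± 4.11 in parental cells, and WNT5A, a secreted ligand that has been tied to MCAM, averaged 417 ± 25.7 in the Fry clone and 15.4 ± 4.02 in parental cells. FGFR1, a growth factor receptor that NCAM1 and L1CAM can engage, averaged 1.30 ± 1.42 in the Fry clone and 576 ± 6.85 in parental cells, a change of -5.10 (adjusted p = 3.31e-10). LAMA5, the laminin chain bound by BCAM, averaged 11.5 ± 2.15 in the Fry clone and 155 ± 19.5 in parental cells, a change of -2.63. PTN, a heparin-binding growth factor, changed by -2.70. FGFR1 lay under the filter signal in the Fry clone, so it could pass the filter only through the parental values. LAMA5 was thus lower, as was its receptor BCAM. FGFR1 was lower where NCAM1 and L1CAM, by their probe sets of highest signal, were higher. Whether any of these changes are linked was not tested. The leukocyte chain ITGAL, a partner of ICAM1, and CD6, the partner of ALCAM, were below the filter. Among other leukocyte integrin chains, named after their values were seen, ITGAM did not pass (adjusted p = 0.995) and ITGB2 was lower. ITGB2 averaged 2.03 ± 1.62 in the Fry clone and 32.3 ± 10.2 in parental cells, a change of -1.40 (adjusted p = 3.75e-05). It could pass the filter only through the parental values.

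Cytoplasmic linkers tie these receptors to the cell skeleton. Of 18 tested, 5 were higher, 8 were lower and 5 did not pass (median -0.13). NF2, which encodes merlin and binds the CD44 tail, averaged 1806 ± 117 in the Fry clone and 167 ± 1.77 in parental cells, a log2 change of 3.31 (adjusted p = 2.59e-09). ANK2, an ankyrin, and DLG3, a scaffold protein, changed by 0.81 and 0.57. SPTAN1, a spectrin, averaged 238 ± 11.4 in the Fry clone and 610.4 ± 37.0 in parental cells, a change of -1.30. The band 4.1 proteins EPB41 and EPB41L1 changed by -0.73 and -0.72. Ezrin (EZR), named after its value was seen, averaged 1055 ± 7.52 in the Fry clone and 1524 ± 152 in parental cells, a change of -0.52 (adjusted p = 0.00129). Its relatives radixin and moesin did not pass (RDX, adjusted p = 0.275; MSN, adjusted p = 0.515).

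Proteases and glycan enzymes that act on these receptors included large changes in both directions. Of 15 tested, 3 were higher, 7 were lower and 5 did not pass (median -0.22). ST6GAL1, a sialyltransferase, averaged 728 ± 72.4 in the Fry clone and 14.6 ± 3.80 in parental cells, a log2 change of 4.61 (adjusted p = 2.03e-09). MGAT5, which branches N-glycans, and ADAM17, a sheddase of several adhesion receptors, changed by 1.06 and 0.40. ADAM8, another membrane protease, averaged 4.20 ± 2.35 in the Fry clone and 382 ± 6.21 in parental cells, a change of -4.31 (adjusted p = 1.35e-09). FUT8, which adds core fucose, and MMP14, which can cleave CD44, changed by -1.76 and -1.22. ADAM8 lay under the filter signal in the Fry clone, so it could pass the filter only through the parental values.

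Most splicing factors known to act on CD44 exons did not pass. Of 18 tested, 1 was higher, 6 were lower and 11 did not pass (median -0.16). DDX5, an RNA helicase, averaged 266 ± 47.9 in the Fry clone and 1025 ± 49.7 in parental cells, a log2 change of -1.89 (adjusted p = 1.17e-06). RBFOX2 and SRRM1 changed by -0.65 and -0.34. The gene called higher was ESRP1, an epithelial splicing regulator, named after its value was seen. ESRP1 averaged 23.7 ± 4.03 in the Fry clone and 2.87 ± 0.709 in parental cells, where it lay under the filter signal.

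**Figure D5:**
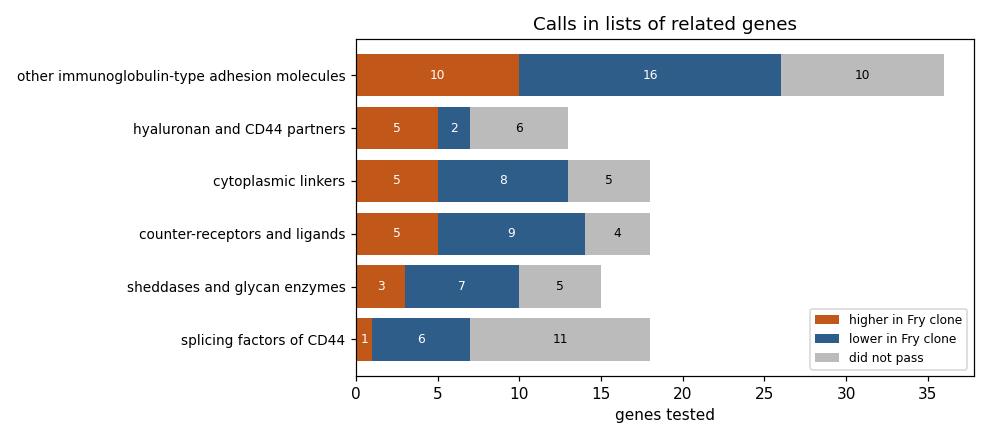
Number of tested genes in 6 lists of related genes that were higher in the Fry clone (orange), lower (blue) or did not pass (grey), by limma with adjusted p under 0.05. Only among hyaluronan and CD44 partners do the higher genes, 5, outnumber the lower ones, 2, where the background is 34% higher and 33% lower over all genes.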

How the data were processed

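Total RNA from cultures at 70% confluence was amplified from 40 ng and labelled with biotin, per the labels' protocols. The deposited intensities were linear; per the submitters' processing notes the authors used MAS5, whose version and scaling target the labels do not state. MAS5 subtracts mismatch signal, so dim values run down to 0 and their ratios are unstable. Gene names came from GEO's platform annotation. Controls aside, 54613 probe sets were present, of which 41091 had 1 gene name, 1801 had several and 11721 had none, and 41037 matched a RefSeq gene table of GRCh38.p14. The 4 probe sets naming MCAM together with MIR6756 were left out of the comparison.

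Every log2 change is on the log2(signal + 16) scale, on which the change of a dim gene comes out too small. Probe sets with a mean at or above the 40th percentile, a signal of 5.62, were tested in R 4.3.3 with limma 3.58.1 (lmFit, eBayes), using all 6 arrays and no covariate. Adjustment was by Benjamini-Hochberg over all 32768 at a threshold of 0.05. The fit was run on simulated data with independent noise and few changed probe sets. That setting is unlike these arrays, so it does not check the calls made here. The control level of an array was its highest value among 27 unspiked bacterial control probe sets, 2.5 to 4.9 over arrays. A group was not above background where none of its arrays exceeded that level. The fold is then a ratio of geometric means with that group set to the level. It bounds the ratio of means and not that of single arrays. The number of arrays limits the precision. Probe sets of 1 gene were compared on the same arrays by an exact permutation test. From each list of related genes the text names up to 3 rises and 3 falls of largest size among called genes with a higher group mean of at least 88.2. The members and lists were chosen with earlier results of these data known. Same-numbered arrays of the groups deviated together weakly (r = 0.07, 0.07 and 0.19), so the numbers were not taken as pairs. Alternatives covered the pseudocount, filter, normalization, variance model, probe set types, threshold, replicate block and each array left out; the limit to a mean signal of at least 100 was added after the data had been seen. Promoter sequences are those of RefSeq, GRCh38.p14. Plots were made in Python 3.11.15 with matplotlib 3.10.9.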

Additional observations from a re-analysis of the deposited data

Results flagged for a closer look

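The 4 probe sets that name both MCAM and MIR6756, the gene of a microRNA, were not used in the comparison, and 3 of them stood above the parental level. Probe set 209086_x_at read 219, 255 and 221 in the Fry clone and 98.1, 108 and 95.6 in parental cells, a ratio of means of 2.31 (limma adjusted p = 9.58e-06). For 210869_s_at the ratio was 1.9, with 398, 499.8 and 363 in the Fry clone and 239, 241 and 183 in parental cells (adjusted p = 5.44e-04). For 211340_s_at the ratio was 2.14, with 1247, 1254 and 1340 in the Fry clone and 514, 639 and 644 in parental cells (adjusted p = 2.13e-05). The fourth, 211042_x_at, which has the highest mean signal of the 6 probe sets annotated to MCAM, went the other way, at 1047, 1142 and 1157 in the Fry clone and 1606, 1585 and 1409 in parental cells, a log2 change of -0.45 (adjusted p = 0.00246). The probe sets naming MCAM alone were higher in the Fry clone, so 5 of the 6 annotated to MCAM were higher and 1 was lower.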

How the results depend on the processing

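Against 22 member probe sets higher and 4 lower, a 60th percentile filter gave 14 higher, dropping probe sets that end in _x_at or _s_at gave 8 higher, and a log2 change of at least 1 gave 8 higher and 1 lower. A mean signal of at least 100, chosen after seeing the data, gave 11 higher and 2 lower. Over all probe sets, 9899 higher and 10538 lower became 6521 and 6905 without those probe set types, 3235 and 2935 with the log2 limit, and 5098 and 5565 with the signal limit. These settings leave fewer probe sets to count. Leaving out 1 array at a time gave 19 to 21 member probe sets higher and 4 lower, and 8950 to 9704 higher and 9505 to 9929 lower over all. With the replicate block, 22 member probe sets were higher and 4 lower, and 10067 and 10703 over all. The brightest probe sets of the 9 tested members kept their direction in every alternative that tested them; only CD44 and NRCAM lost calls. As a median over probe sets, the change was 0.31 for L1CAM, 1.73 for ICAM1 and 0.73 for CEACAM1. The pseudocount moved the size of dim members by over 1.5 times, as given for CEACAM1, NCAM1, BCAM and NRCAM. Signals at the control level leave only a bound for VCAM1, for 227394_at of NCAM1 and for 211889_x_at of CEACAM1.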
